A study of Mus musculus with 6 samples.

Results

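The 45 genes described here encode the DNA replication machinery and the enzymes and regulators of S phase, from the complex that licenses origins to the factors that rebuild chromatin behind the fork. They were chosen by symbol from a list of names, with earlier results of these data known. All 45 were found among the 49585 genes of the deposited table. All 45 also reached 10 counts in every library, so that no member was lost to the filter on low counts. The samples were Prx1:Tdtomato+ lateral plate mesenchymal cells (LPMs) that had been isolated by FACS from thoracic walls of mouse embryos at E10.5, of strain C57BL/6 in the labels and on a C57BL/6NCrSlc background in the study's methods. Limb buds, heart and other organs had been removed from these trunks. The 3 Prx1-Cre Ebf3-KO libraries carried Ebf3 flox/flox, and the 3 Prx1-Cre Ebf3 heterozygous libraries carried Ebf3 flox/+. Both genotypes shared Prx1-Cre and the R26R Tdtomato reporter, and no library without Cre or with 2 intact Ebf3 alleles entered the comparison. Prx1-Cre is active in limb and lateral plate mesenchyme, so the deletion reaches only cells that have used this driver. Loss of the floxed exons 5 and 6, which encode the DNA-binding domain, leaves the other exons of Ebf3 to be transcribed and counted. The labels do not say whether each library came from a separate embryo, and p-values therefore measure the spread between these libraries, which may be technical in part.

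DNA replication starts when the origin recognition complex, with Cdc6 and Cdt1, loads the Mcm2-7 helicase on chromatin in G1. In S phase Cdc45, the Gins complex and Mcm10 turn the loaded helicase into a moving fork. Primase and the replicative polymerases then copy both strands, held on DNA by the clamp Pcna that the Rfc complex loads. The transcripts of many of these genes are periodic, with E2f factors and the Rb family as the main known regulators, and they are abundant in fast-cycling embryonic mesenchyme. In RNA from sorted bulk cells, fewer cells in S phase and less of these RNAs per cell cannot be told apart.

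Sequence around the transcription start was not used to choose the members. E2f factors are known to bind a core that can be spelled TTTCCCGC, TTTGGCGC, TTTGCCGC or TTTCGCGC, and these letters were searched on both strands of RefSeq promoter windows (build GRCm38.p6) that run from 250 bases before to 50 bases after the start. Windows were found for 38 of the 45 members. At least 1 of the 4 spellings stood in the windows of 14 of these 38 members (36.8%), and in those of 2.60% of all 27025 genes with a window. The letters CCAAT, the core bound by NF-Y and a common element of cell cycle promoters, stood in 63.2% of these members and in 41.1% of all genes. A match is a description of letters and not a bound site. The runs below are shown because they belong to members from successive steps of replication, with the E2F letters in capitals. In Mcm5 and in the upstream run of Mcm6, a spelling on each strand overlaps the other. All runs are written on the strand of the gene. The start used is that of RefSeq. By the gene positions of the GENCODE M21 annotation, the runs of Cdc6 and Gins3 lie inside the gene and that of Orc1 spans its start.
Orc1, chr4:108579419-108579442, + strand: ggttagtgGCGCGAAAagttttct
Cdc6, chr11:98908005-98908028, + strand: ggtggagaGCGGGAAAtcgcctgg
Mcm5, chr8:75109348-75109375, + strand: ccaagaacTTTCGCGCCAAAacgtccag
Mcm6, chr1:128359796-128359823, - strand: cgtatgctTTTGGCGCGAAAagtgcgtg
Gins3, chr8:95633510-95633533, + strand: agtgcggcGCGGGAAAgcgagttt
Pola1, chrX:93632278-93632301, - strand: atcacaggGCGCCAAAtgcactcc
The 14 members with these letters had a median log2 fold change of 0.0085 between KO and heterozygous LPMs, with 8 of 14 higher in mean in KO LPMs. The 24 members with a window but without the letters had a median of 0.055, with 13 of 24 higher in mean. Members with and without E2F letters thus both had medians near 0.

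The 6 libraries held 2088091 to 3525565 counts in genes, from 36931792 to 44536132 reads. Levels in CPM are the counts of a gene relative to those of all tested genes in that library, with TMM factors, and the log2 fold change is that of KO over heterozygous LPMs in edgeR's quasi-likelihood test over 10891 genes. Ebf3 had 74.0, 43.1 and 60.7 CPM in KO LPMs, against 94.6, 98.6 and 105.6 CPM in heterozygous LPMs. Every KO library lay below every heterozygous one (log2 fold change -0.74, SE 0.18, unadjusted p = 0.0016), although over all genes the adjusted p was 1.00. Markers of lateral plate mesenchyme, among them Prrx1, Twist1 and Pdgfra, were present in every library. Marker sums are relative to all gene counts of a library, without TMM factors. The 12 markers of lateral plate mesenchyme summed to 3537 to 5904 CPM in KO and 4360 to 6027 CPM in heterozygous LPMs. Markers of epithelium and liver summed to 234 to 512 CPM in KO and 271 to 406 CPM in heterozygous LPMs, and those of endothelium to 72.3 to 241 CPM in KO and 59.2 to 182 CPM in heterozygous LPMs. Nervous system markers summed to 17.2 to 47.9 CPM in KO and 4.93 to 19.0 CPM in heterozygous LPMs, with Sox2 alone of 7 at 0 throughout. Blood markers summed to 1.92 to 25.5 CPM in KO and 0.921 to 4.11 CPM in heterozygous LPMs, and muscle progenitor markers to 3.32 to 6.52 CPM in KO and 2.51 to 4.30 CPM in heterozygous LPMs. KO replicate 3 had the highest sum of each of these 5 lists. Immediate early genes, which respond to tissue dissociation, summed to 423, 221 and 759 CPM in KO and to 253, 304 and 240 CPM in heterozygous LPMs, and the part of these or of the other markers in the results below was not tested.

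No member differed between the genotypes after adjustment over all genes, and neither did any other of the 10891 genes (0.0% called). At an unadjusted p up to 0.05 stood 2 of 45 members, 1 higher and 1 lower in KO LPMs, beside 234 of all genes tested (2.15%), of which 150 were higher (1.38%) and 84 lower (0.771%). The libraries of the genotypes did not overlap for 2 members, with KO above for 1 and KO below for 1, where 7.46% of all genes did not overlap (3.95% with KO above and 3.51% with KO below). The mean was higher in KO LPMs for 25 members and lower for 20, and 50.2% of all genes were higher. The median log2 fold change was 0.019 over the members and 0.00067 over all genes tested. Single members lay between -0.32 and 0.48, and 32 of 45 lay within 0.2 of 0. That last share was not computed over all genes, so it describes the members alone.

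The intervals say how large a difference these libraries leave room for. The 95% interval of the fold change from the same fit lay within 2-fold in either direction for all 45 members (80.9% of all genes tested). It lay within 1.5-fold for 26 members, a share that was not computed over all genes. All members had 10 or more counts in every library, as did 9650 of the 10891 genes tested, so the 2-fold shares are not at like counts. These intervals rest on 3 libraries a genotype and do not show that a member was unchanged. The widest was that of Fen1, at 0.51 to 1.89-fold, and narrow ones were those of Rfc1, at 0.80 to 1.17-fold, and Pole, at 0.81 to 1.18-fold.

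**Figure D1:**
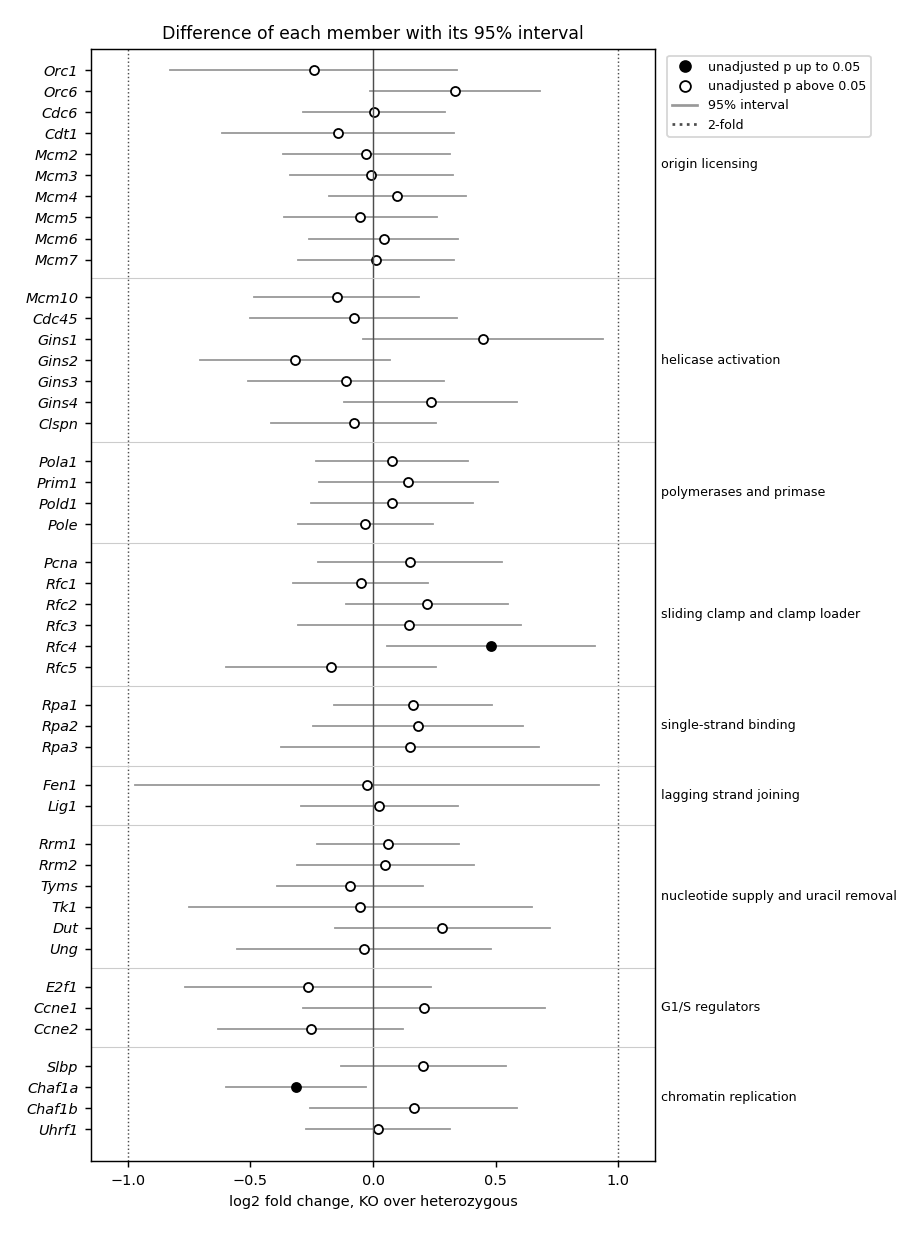
Log2 fold change of KO over heterozygous LPMs (horizontal axis) for each of the 45 members, grouped by role, with the 95% interval as a line. Filled points mark Rfc4 and Chaf1a, the 2 members whose unadjusted p was at most 0.05, and every interval lies between the dotted 2-fold lines.

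The licensing factors mark origins for use in the coming S phase, and none of the 10 had an unadjusted p up to 0.05. Their means were higher in KO LPMs for 5 and lower for 5, with a median log2 fold change of -0.0023. Mcm3, a subunit of the helicase ring and the highest member of this group per length, had 398.7, 551.3 and 518.8 CPM in KO LPMs, against 466.9, 546.2 and 463.7 CPM in heterozygous LPMs. The KO libraries of Mcm3 thus spanned the heterozygous ones (log2 fold change -0.0078, SE 0.15, unadjusted p = 0.96). The 6 Mcm2-7 subunits together lay between -0.053 for Mcm5 and 0.098 for Mcm4. Mcm2 was even among heterozygous libraries, with 375.1, 380.8 and 391.3 CPM, and spread in KO libraries, with 297.1, 445.2 and 383.1 CPM.

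Orc6, the smallest subunit of the origin recognition complex, had 73.1, 103.6 and 79.4 CPM in KO LPMs, against 69.4, 62.6 and 70.3 CPM in heterozygous LPMs. It was the 1 member whose KO libraries all lay above the heterozygous ones (log2 fold change 0.33, SE 0.16, unadjusted p = 0.057, adjusted p = 1.00). KO replicate 2 was the highest library, and without it the log2 fold change was 0.17. Orc1, a subunit that binds ATP and is degraded in S phase in human cells, was lower in mean at a log2 fold change of -0.24 (SE 0.27). The sign for Orc1 changed without heterozygous replicate 2. Cdc6, which helps to load the helicase, had 66.9, 77.3 and 74.2 CPM in KO and 69.4, 74.6 and 74.1 CPM in heterozygous LPMs, a difference of 0.0031 on the log2 scale (SE 0.13). Cdt1, its partner in loading, was at 28.1 to 39.7 CPM in KO and 28.0 to 43.9 CPM in heterozygous LPMs.

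**Figure D2:**
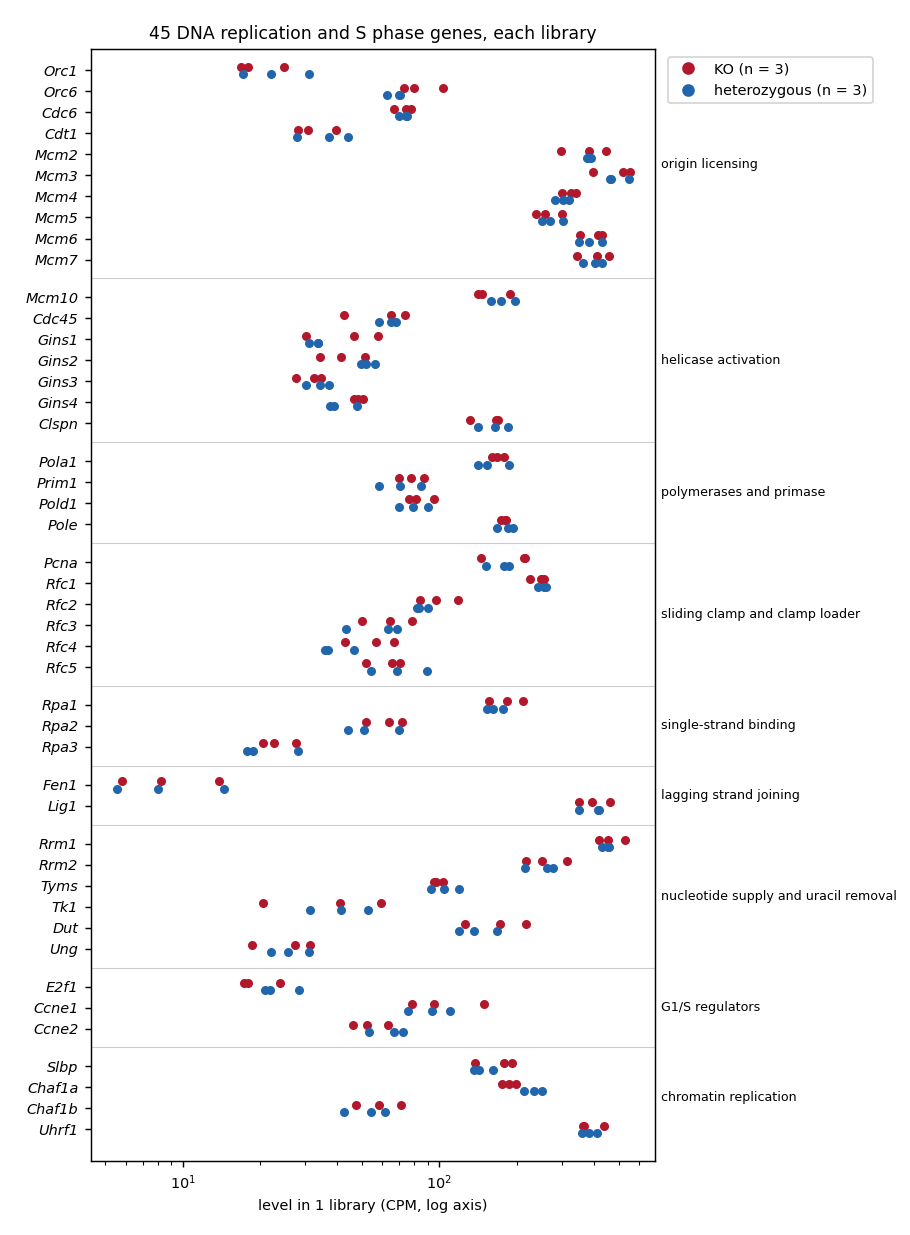
Level of each member in each library, in CPM on a log axis, with KO libraries in red above heterozygous libraries in blue, grouped by role. The colours overlap in every row but those of Orc6, where the 3 KO libraries lie above, and Chaf1a, where they lie below.

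The subunits of the 4-part Gins complex, which joins Cdc45 and the Mcm ring at the fork, differed in sign among themselves. Gins1 had 30.2, 57.5 and 46.6 CPM in KO LPMs, against 31.0, 33.6 and 33.6 CPM in heterozygous LPMs. KO replicates 2 and 3 were higher than all heterozygous libraries and KO replicate 1 was lower than all of them (log2 fold change 0.45, SE 0.22, unadjusted p = 0.069). Gins2 had 34.3, 51.6 and 41.4 CPM in KO LPMs, against 49.8, 56.4 and 51.9 CPM in heterozygous LPMs, with 2 KO libraries below the heterozygous range (log2 fold change -0.32, SE 0.18, unadjusted p = 0.098). Exons of another gene, Gse1, cover 67.3% of the exon bases of Gins2 in GENCODE M21, and a read there could be split or left out. Gins4, first of the 7 genes of helicase activation in mean level per length, had 46.7, 50.6 and 48.3 CPM in KO LPMs and 37.5, 47.7 and 38.7 CPM in heterozygous LPMs (log2 fold change 0.23, SE 0.16, unadjusted p = 0.17). Gins3 had a log2 fold change of -0.11 (SE 0.18).

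Of the other genes that activate the helicase, Mcm10 had 147.1, 189.4 and 142.0 CPM in KO and 174.2, 196.4 and 158.4 CPM in heterozygous LPMs. Cdc45, a part of the active helicase, had 42.6 CPM in KO replicate 1 and 58.3 to 73.4 CPM in the other 5 libraries. Clspn, the adaptor Claspin that links the fork to the checkpoint kinase Chek1, was at 131.8 to 169.6 CPM in KO and 142.1 to 185.8 CPM in heterozygous LPMs. The 7 genes of helicase activation were higher in mean in KO LPMs for 2 and lower for 5, with a median of -0.080 on the log2 scale and none with an unadjusted p up to 0.05.

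The 4 catalytic subunits that make DNA and its primers did not pass the unadjusted threshold either, and their log2 fold changes lay between -0.032 and 0.14. Prim1, the primase that starts each fragment, was first of the 4 per length in the mean over 6 libraries but above Pole in only 3 of them. It had 69.4, 77.3 and 86.9 CPM in KO LPMs, against 58.1, 84.5 and 70.3 CPM in heterozygous LPMs (log2 fold change 0.14, SE 0.17, unadjusted p = 0.41). Pola1, its partner polymerase, was at 161.1 to 178.4 CPM in KO and 141.4 to 186.5 CPM in heterozygous LPMs. Pole, known in yeast for the leading strand, was at 174.0 to 182.2 CPM in KO and 168.2 to 194.6 CPM in heterozygous LPMs, the smallest relative spread of any member among KO libraries (CV 2.40%). Pold1, known in yeast for the lagging strand, was at 76.4 to 95.7 CPM in KO and 69.4 to 90.3 CPM in heterozygous LPMs.

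Rfc4, a subunit of the loader that opens the Pcna ring, had the smallest unadjusted p of all 45 members. It had 43.0, 66.4 and 56.8 CPM in KO LPMs, against 36.9, 46.4 and 35.8 CPM in heterozygous LPMs. KO replicate 1 lay below heterozygous replicate 2, so that the genotypes overlapped (log2 fold change 0.48, SE 0.19, unadjusted p = 0.0295, adjusted p = 1.00). Leaving out a library put the log2 fold change of Rfc4 between 0.33 and 0.63. Exons of Eif4a2 cover 12.7% of its exon bases. The other 4 Rfc subunits lay between -0.17 for Rfc5 and 0.22 for Rfc2, so that subunits of 1 complex differed in sign here as well. Rfc1, the large subunit, had 257.0, 249.9 and 226.7 CPM in KO and 255.9, 260.7 and 242.7 CPM in heterozygous LPMs.

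Pcna, the clamp and the usual marker of proliferating cells, had 145.4, 213.7 and 216.2 CPM in KO LPMs, against 152.4, 179.4 and 187.4 CPM in heterozygous LPMs. The spread of the KO libraries covered the heterozygous range (log2 fold change 0.15, SE 0.17, unadjusted p = 0.40). The 3 subunits of Rpa, the complex that coats single-stranded DNA, were all higher in mean in KO LPMs, with log2 fold changes of 0.16 for Rpa1, 0.18 for Rpa2 and 0.15 for Rpa3. Rpa1, the large subunit, had 156.2, 212.7 and 183.7 CPM in KO LPMs, against 162.2, 177.8 and 153.7 CPM in heterozygous LPMs (SE 0.15, unadjusted p = 0.29). None of the 3 passed the unadjusted threshold, and the libraries overlapped for each. Leaving out a library put the log2 fold change between 0.043 and 0.26 for Rpa1, 0.045 and 0.39 for Rpa2, and 0.017 and 0.38 for Rpa3.

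Lig1, the ligase that joins Okazaki fragments, had 349.5, 463.6 and 393.3 CPM in KO LPMs, against 415.6, 419.0 and 350.9 CPM in heterozygous LPMs. The ranges overlapped (log2 fold change 0.024, SE 0.15, unadjusted p = 0.87). Fen1, the flap endonuclease that trims these fragments, was counted only 14, 28 and 30 times in KO libraries and 26, 35 and 13 times in heterozygous libraries. Other genes, Gm10143 and Tmem258, cover 84.2% of its exon bases, and its deposited RPKM per count varied 1.97-fold between libraries. The counts of Fen1 are therefore a poor measure of its level.

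Among the enzymes of nucleotide supply, Rrm2, the regulatory subunit of ribonucleotide reductase, had 217.3, 313.3 and 251.8 CPM in KO LPMs, against 215.6, 277.2 and 263.2 CPM in heterozygous LPMs (log2 fold change 0.049, SE 0.16, unadjusted p = 0.77). Rrm1, the catalytic subunit, was at 418.9 to 528.5 CPM in KO and 432.2 to 456.5 CPM in heterozygous LPMs. Dut, which breaks down dUTP so that uracil stays out of DNA, had 126.0, 218.1 and 171.8 CPM in KO LPMs, against 119.8, 167.8 and 136.7 CPM in heterozygous LPMs. At 0.28 on the log2 scale (SE 0.20, unadjusted p = 0.19), Dut had the largest difference of the 6 genes of this group, with 0.074 to 0.46 when a library was left out. Tk1, the thymidine salvage kinase, had the widest relative spread among KO libraries, with 20.7, 59.5 and 41.1 CPM (CV 48.1%), and 31.3, 41.4 and 52.8 CPM in heterozygous libraries. Tyms, thymidylate synthase, and Ung, which removes uracil, had log2 fold changes of -0.093 (SE 0.14) and -0.037 (SE 0.24).

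Both E-type cyclins activate Cdk2 at entry into S phase, and their means differed in opposite directions without passing the test. Ccne1 had 78.5, 149.7 and 95.7 CPM in KO LPMs, against 75.9, 93.7 and 109.9 CPM in heterozygous LPMs. Its mean was raised by KO replicate 2 (log2 fold change 0.21, SE 0.22, unadjusted p = 0.37), and without that library the log2 fold change was -0.093. Ccne2 had 46.3, 63.0 and 52.1 CPM in KO LPMs, against 53.4, 66.7 and 72.4 CPM in heterozygous LPMs (log2 fold change -0.25, SE 0.17, unadjusted p = 0.17). E2f1, an activator of S phase genes, was low in both genotypes, with 24.0, 17.4 and 17.9 CPM in KO and 20.9, 22.0 and 28.5 CPM in heterozygous LPMs (log2 fold change -0.26, SE 0.23).

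Chaf1a was the member with the smallest unadjusted p among those lower in KO LPMs. This gene encodes the large subunit of CAF-1, which places histones on new DNA. It had 186.7, 199.3 and 175.7 CPM in KO LPMs, against 233.5, 251.1 and 213.3 CPM in heterozygous LPMs, and all KO libraries lay below all heterozygous ones. Its difference of -0.31 on the log2 scale (SE 0.13) had an unadjusted p of 0.0337, an adjusted p of 1.00 and a 95% interval of 0.66 to 0.98-fold. Without single libraries it stayed between -0.37 and -0.26. Ubxn6 covers 52.5% of the exon bases of Chaf1a in GENCODE M21. The gene's end in the deposited table lies short of its end in that annotation, the single member whose position was not identical. The share of overlap in the shorter model that was counted was not computed. Chaf1b, which encodes another subunit of CAF-1, lay the other way, with 47.5, 70.9 and 58.5 CPM in KO and 42.4, 54.3 and 61.3 CPM in heterozygous LPMs (log2 fold change 0.17, SE 0.19, unadjusted p = 0.41).

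Uhrf1, which brings the maintenance methyltransferase Dnmt1 to new DNA, had 364.0, 439.8 and 365.1 CPM in KO LPMs, against 410.1, 383.7 and 358.96 CPM in heterozygous LPMs (log2 fold change 0.019, SE 0.13, unadjusted p = 0.89). Slbp, the stem-loop binding protein of histone mRNAs, was at 138.4 to 191.9 CPM in KO and 136.3 to 162.4 CPM in heterozygous LPMs (log2 fold change 0.20, SE 0.15).

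The median member differed more among libraries of a genotype than between the genotypes. Relative to each gene's mean over the 6 libraries, the median member lay at -0.18, 0.19 and 0.030 on the log2 scale in KO replicates 1 to 3, and at -0.095, 0.11 and -0.065 in heterozygous replicates 1 to 3. All genes tested had medians between 0.0055 and 0.023 in the same libraries. KO replicate 2 was the highest of the 6 libraries for 22 of the 45 members (48.9%, and 20.4% of all genes), and KO replicate 1 for none (0.0%, and 17.0% of all genes). KO replicate 1 was the lowest for 16 members (35.6%, and 19.4% of all genes) and KO replicate 2 for 1 (2.22%, and 20.1% of all genes). The 22 genes of mitosis had medians of -0.17, 0.12 and 0.0078 in KO and -0.047, 0.11 and 0.0093 in heterozygous libraries.

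In share of all gene counts, the 45 members took 0.613%, 0.755% and 0.719% in KO libraries and 0.659%, 0.723% and 0.651% in heterozygous libraries. The means were 0.696% ± 0.073 in KO and 0.677% ± 0.039 in heterozygous libraries (SD, n = 3 each). The summed level of the lateral plate mesenchyme markers lay nearly in the reverse order, at 5904, 3537 and 4509 CPM in KO and 6027, 4360 and 4674 CPM in heterozygous libraries. Collagen genes, Col3a1 and Col1a1 before others, made up most of that sum, so the order is not that of each marker. Col1a1 was counted 3851 times in KO replicate 1 and 1527 times in KO replicate 2. Prrx2 was counted 105 and 163 times in the same libraries, although KO replicate 2 held fewer gene counts. The part of these markers, or of the depth of the libraries, in the position of the members was not tested.

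**Figure D3:**
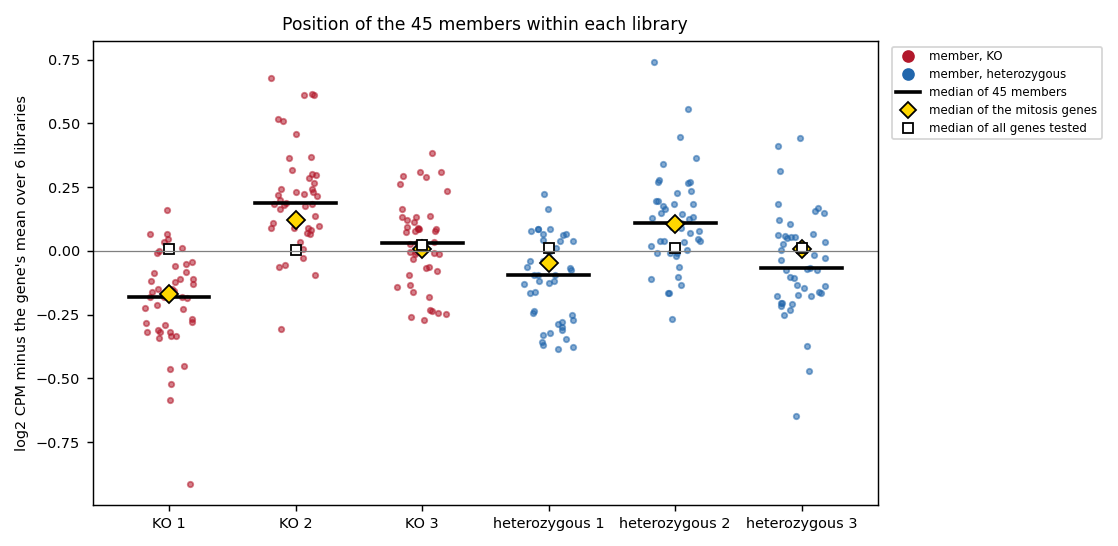
Log2 CPM of each of the 45 members minus its mean over the 6 libraries (vertical axis), for each KO and heterozygous library, with the median of the members as a bar, of 22 mitosis genes as a diamond and of all genes tested as a square. KO replicate 1 lies lowest at a median of -0.18 and KO replicate 2 highest at 0.19, and the 3 heterozygous libraries lie between them.

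Leaving out a single KO library moved the members as a list. Without KO replicate 1 the median log2 fold change of the members was 0.12 and 8 of 45 had an unadjusted p up to 0.05 (17.8%, beside 7.08% of all genes), all of them but Chaf1a higher in KO LPMs. Without KO replicate 2 the median was -0.073 with 2 of 45 (4.44%, beside 3.39% of all genes). The count was 0 without KO replicate 3 (1.20% of all genes) and 0 without heterozygous replicate 1 (2.11%). It was 1 without heterozygous replicate 2 (Rfc4, beside 2.13% of all genes) and 1 without heterozygous replicate 3 (Chaf1a, beside 2.24%). No member passed the adjusted threshold in any of these fits. Among KO libraries the median coefficient of variation of a member was 16.3%, and among heterozygous libraries it was 10.8%. In the 8845 genes of the same range of CPM it was 15.5% and 13.3%.

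Compared per length, in the deposited RPKM, the members spanned a 19.5-fold range of mean level over the 6 libraries. Gene counts equalled 5.41% to 11.3% of the mapped reads. On a relative scale the deposited RPKM per count was 0.930 to 1.06 in the 6 libraries, so RPKM were not scaled to the counts in genes. The total they were scaled to was not determined. KO replicate 3, with the most gene counts, had the highest sum of RPKM over the members (664). The sums were 361 and 369 in KO replicates 1 and 2, and 497, 463 and 386 in heterozygous replicates 1 to 3. Levels are therefore compared between genes within the same libraries. The top 13 members averaged 15 RPKM or more and held all 6 subunits of Mcm2-7, with Pcna, Uhrf1, Lig1, Rrm2, Rrm1, Chaf1a and Dut. Mcm3 was first at 32.5 ± 13.8 RPKM in KO and 32.5 ± 4.53 RPKM in heterozygous LPMs, ahead of Pcna at 31.2 ± 14.6 RPKM in KO and 25.2 ± 1.89 RPKM in heterozygous LPMs (SD, n = 3 each). E2f1, the regulator, was last at 1.52 ± 0.52 RPKM in KO and 1.82 ± 0.18 RPKM in heterozygous LPMs (SD, n = 3 each).

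Between these ends most neighbours in the order could not be told apart. Of the 44 pairs of neighbours, 4 kept their order in all 6 libraries, which were Mcm3 above Pcna, Mcm6 above Mcm5, Dut above Fen1 and Cdc6 above Gins3. For Fen1, as for Orc1, Cdt1, Tk1, Gins2, Pcna and Ccne2, the RPKM per count was uneven between libraries by 1.13-fold to 1.97-fold, so their place in this order is less certain, and the cause was not tested. The order and the ratios below also depend on the lengths behind the deposited RPKM. RPKM over CPM per kilobase of M21 exon was 0.53 for Rrm1 and 0.24 for Rrm2. It was 0.69 for Chaf1a and 0.23 for Chaf1b, and 0.43 for Mcm2 and 0.24 for Mcm5. With M21 lengths the ratios within these complexes would therefore differ. Within a complex the levels in deposited RPKM were uneven to different degrees. The highest Mcm2-7 subunit was 1.82 to 2.18 times the lowest, which was Mcm5 in every library. Rrm1 and Rrm2 lay within 1.11-fold of each other in every library. Chaf1a was 4.56 to 6.20 times Chaf1b in KO libraries and 5.54 to 8.82 times in heterozygous libraries.

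**Figure D4:**
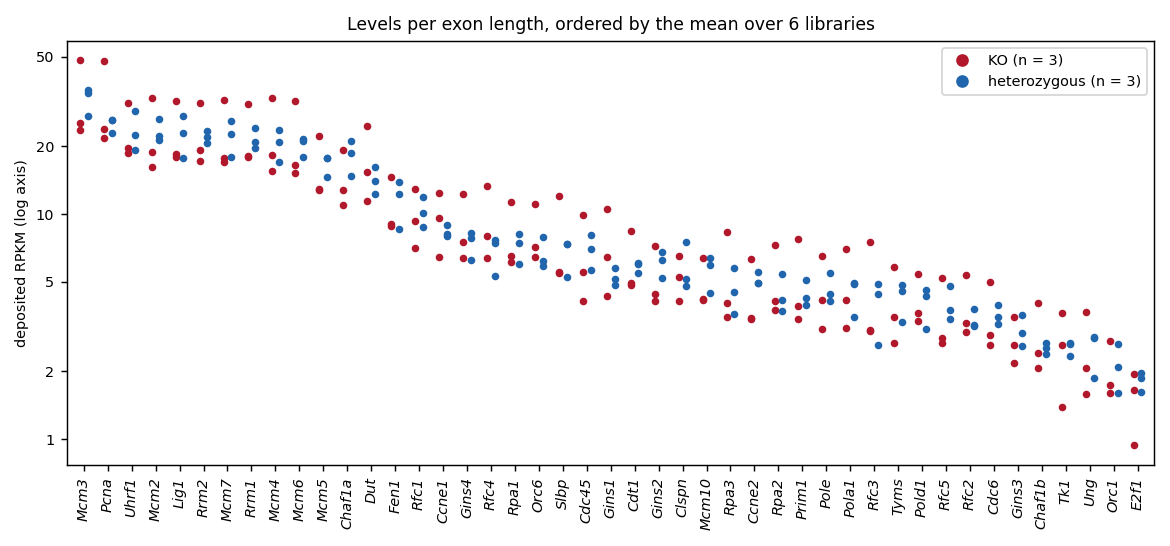
Deposited RPKM of each member in each library on a log axis, in the order of the mean over 6 libraries, with KO libraries in red left of heterozygous libraries in blue. Levels run from Mcm3 at 32.5 RPKM to E2f1 at 1.67 RPKM, and neighbours overlap throughout.

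Exon length was set beside the difference of each member. Over the 45 members the log2 fold change and the merged exon length in GENCODE M21 had a Spearman rho of -0.34 (Pearson r of -0.44 with log2 length), and over the 10673 tested genes with a length rho was -0.18 (r of -0.15). The M21 model of Chaf1a is longer than the gene in the deposited table, and without this gene rho over the members was -0.30. Relative lengths were also taken from the deposited counts and RPKM, a choice made after seeing the data. With them rho was -0.12 and Chaf1a was not among the longest. These implied lengths are uncertain for members whose RPKM per count was uneven between libraries, by up to 1.97-fold for Fen1. All values of rho and r are correlations across genes that share the same 6 libraries, and genes are not independent replicates. The part of transcript length in the differences was not tested.

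Genes of the same processes that are not among the 45 were read against the same 2.15% of all genes at an unadjusted p up to 0.05. Of 39 other genes of the replication machinery, all tested, 17 were higher and 22 lower in mean in KO LPMs. Their median log2 fold change was -0.022, and Recql4 alone had an unadjusted p up to 0.05. All KO libraries lay below all heterozygous ones for 4 of the 39 (3.51% of all genes) and above them for 0 (3.95% of all genes). Recql4, a helicase that takes part in the start of replication, had 26.4, 28.8 and 28.7 CPM in KO LPMs, against 37.5, 41.4 and 32.8 CPM in heterozygous LPMs (log2 fold change -0.41, SE 0.18, unadjusted p = 0.039, adjusted p = 1.00). Timeless, which protects the fork, had 132.6, 122.5 and 114.7 CPM in KO LPMs, against 165.6, 142.6 and 136.7 CPM in heterozygous LPMs, also without overlap (log2 fold change -0.27, SE 0.13, unadjusted p = 0.071). Pole4, a small subunit of polymerase epsilon, had a log2 fold change of 0.49 (SE 0.27).

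Of 29 other regulators of the G1/S transition, 27 were tested and Cdkn1a and Cdkn2c were under the count minimum. Their means were higher in KO LPMs for 14 and lower for 13, and none had an unadjusted p up to 0.05. Rbl1, which encodes the Rb relative p107, came closest with 65.3, 59.0 and 74.7 CPM in KO LPMs, against 58.7, 54.3 and 42.2 CPM in heterozygous LPMs, and all KO libraries lay above (log2 fold change 0.36, SE 0.17, unadjusted p = 0.054). The repressor E2f8 and the Rb partner E2f5 had log2 fold changes of -0.26 (SE 0.15) and 0.33 (SE 0.19). All 17 other genes of nucleotide supply and 9 of chromatin replication were tested, and none had an unadjusted p up to 0.05. In these lists the smallest p-values belonged to Samhd1 (log2 fold change 0.19, SE 0.15), Cad (-0.19, SE 0.16) and Impdh2 (0.18, SE 0.16), and to Asf1a (0.29, SE 0.22), Hells (-0.15, SE 0.14) and Nasp (-0.11, SE 0.12).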

How the data were processed

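RNA of FACS-sorted thoracic LPMs was made into SMARTer libraries and sequenced on the NextSeq-500 platform, and the authors mapped and counted the reads in CLC with its Ensembl annotation. The paper names build mm10 and the submitters' processing notes name mm9. Positions of 44 of the 45 members equal those of GENCODE M21 (GRCm38). Strandedness is not given in the sources used here. The deposited counts are whole numbers per gene, and the RPKM were computed by the authors, with a scaling total that was not determined here. Deposited total and mapped reads per library come under other values. Columns and a list with the authors' fold changes and p-values, and their normalized values, were not used.

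The quasi-likelihood test of edgeR 4.0.16 in R 4.3.3 compared the genotypes, the only term, after TMM normalization (factors 0.970 to 1.035). A gene was kept where 3 or more libraries held 10 or more counts, which 10891 genes did, and Benjamini-Hochberg adjustment ran over all of these. The common biological coefficient of variation was 0.173. The SE is the size of the log2 fold change divided by the square root of F, and the 95% interval uses the degrees of freedom of the fit. The study names an equal-variance two-sample test, which was run as an alternative. An exact permutation test of 3 libraries against 3 cannot go below p = 0.1. The pipeline was also run on simulated counts, in which the changes were set larger than the differences of the members. That run does not tell how well differences as small as those of the members are found. No pair of libraries held identical values. Alternatives used DESeq2 1.42.0 and limma 3.58.1, among others given in the closing section. Tables were handled with pandas 2.3.3.

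The members and gene lists were chosen with earlier results of these data known. Full statistics are given for the 3 members of smallest p in each direction, the member of highest RPKM in each of 9 roles, and, in other lists, up to 3 genes of smallest p. Further members are given by their values. Promoters come from RefSeq (GRCm38.p6).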

Additional observations from a re-analysis of the deposited data

How the results depend on the processing

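No member passed an adjusted p of 0.05 under any of the 16 alternatives, where the smallest adjusted p of a member was 0.58. Over all genes the count at that threshold was 0, but 38 with no count filter, 1 with log2(RPKM + 1), 5 with log2(RPKM + 0.1), 2 with the replicate block and 0 to 1 when a library was left out. With no count filter Ebf3 was among those called. At an unadjusted p up to 0.05 the counts over all genes were 234 from edgeR, 125 from DESeq2, 405 from the equal-variance test on log2 CPM, 571 with no count filter, 71 with log2(RPKM + 1), 61 with log2(RPKM + 0.1), 493 with the replicate block and 127 to 756 when a library was left out. The members among them were 2 from edgeR, 1 from the equal-variance test, 0 with either RPKM scale and 0 to 8 when a library was left out. Same-numbered correlations of deviations were 0.43, 0.19 and 0.013. KO replicates 1 and 2 correlated best with their own number, and KO replicate 3 with heterozygous replicate 2 (0.092). Whether the numbers pair the libraries was therefore not settled. With the replicate block 5 members (Chaf1a, Dut, Gins1, Orc6 and Rfc4) stood at an unadjusted p up to 0.05, beside 4.53% of all genes. The members' median log2 fold change lay between -0.073 and 0.12 when a library was left out, against 0.019 with all 6. Of 720 values of members under the alternatives, 659 kept their sign and 61, of 25 members, did not. The changed log2 fold changes were Mcm3 0.0039 with library size alone, Mcm3 0.013 with upper quartile factors, Fen1 0.014 in log2 CPM and Cdc6 -0.0062 with no count filter. With log2(RPKM + 1) they were Cdc6 -0.049, Cdt1 0.0063, Mcm6 -0.0072, Mcm7 -0.039, Lig1 -0.029, Rrm2 -0.0044, Uhrf1 -0.036, with log2(RPKM + 0.1) Cdc6 -0.071, Cdt1 0.0017, Mcm6 -0.010, Mcm7 -0.043, Lig1 -0.031, Rrm2 -0.0064, Uhrf1 -0.038, and with the replicate block Cdc6 -0.00015, Fen1 0.011. Leaving out a library gave the other changes of sign, with log2 fold changes in the ranges Orc1 (-0.43 to 0.012), Cdc6 (-0.045 to 0.059), Cdt1 (-0.31 to 0.018), Mcm2 (-0.17 to 0.11), Mcm3 (-0.11 to 0.12), Mcm5 (-0.16 to 0.026), Mcm6 (-0.025 to 0.12), Mcm7 (-0.093 to 0.12), Cdc45 (-0.24 to 0.11), Clspn (-0.17 to 0.033), Pola1 (-0.0035 to 0.20), Pold1 (-0.025 to 0.18), Pole (-0.087 to 0.015), Rfc1 (-0.089 to 0.0034), Rfc3 (-0.032 to 0.30), Rfc5 (-0.33 to 0.031), Fen1 (-0.39 to 0.42), Lig1 (-0.095 to 0.11), Rrm1 (-0.042 to 0.13), Rrm2 (-0.11 to 0.16), Tyms (-0.17 to 0.0014), Tk1 (-0.41 to 0.26), Ung (-0.19 to 0.14), Ccne1 (-0.093 to 0.39), Uhrf1 (-0.081 to 0.071). Where a fit had 2 libraries in a genotype, their spread was pooled with that of the others. The causes of these changes were not tested. Fen1 had the fewest counts of the members, 13 to 35 a library.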

Other observations

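Genes of the replication checkpoint and of mitosis, which belong to the same cycle, were measured beside the members. All 16 checkpoint genes were tested, 8 were higher and 8 lower in mean in KO LPMs, and none had an unadjusted p up to 0.05 in edgeR's quasi-likelihood test. Brca2, which protects stalled forks, had 177.2, 138.3 and 142.6 CPM in KO LPMs, against 179.1, 199.3 and 174.2 CPM in heterozygous LPMs (log2 fold change -0.27, SE 0.14, unadjusted p = 0.083). Hus1, part of the checkpoint clamp, had 30.6, 35.7 and 30.6 CPM in KO LPMs, against 26.7, 27.3 and 22.1 CPM in heterozygous LPMs, without overlap (log2 fold change 0.34, SE 0.19, unadjusted p = 0.099). Atrip, the partner of the kinase Atr, was counted only 10, 8 and 16 times in KO and 23, 24 and 7 times in heterozygous libraries.

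All 22 mitosis genes were tested, with 10 higher and 12 lower in mean in KO LPMs and none with an unadjusted p up to 0.05. Mki67, the proliferation antigen Ki-67, had 2846, 2294 and 2338 CPM in KO LPMs, against 2915, 2916 and 2907 CPM in heterozygous LPMs. All KO libraries lay below the heterozygous ones (log2 fold change -0.22, SE 0.13, unadjusted p = 0.11). The kinetochore genes Cenpe and Cenpf had log2 fold changes of -0.26 (SE 0.14, unadjusted p = 0.085) and -0.30 (SE 0.16, unadjusted p = 0.087). In KO replicate 2, where 22 of the 45 replication genes were highest, 19 of the 22 mitosis genes lay above their mean over the 6 libraries. Of all genes 50.8% did so in that library. Mki67 and Cenpf were among the exceptions, and KO replicate 2 was their lowest library.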
